A study of Mus musculus with 6 samples.

Results

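The expression of 9 genes that mark lymphocytes and neutrophils was described in mouse brain. They were chosen by name out of 29608 gene names on the array, with every probe that carries one of these names, which gave 13 probes. The genes are the T cell genes Cd3e, Cd3g, Cd4 and Cd8a, the B cell gene Cd79a, and the neutrophil genes Ngp, Camp, Ltf and Mmp9. RNA came from brain of male C57BL/6N mice, in 6 samples, 3 titled as wild type and 3 as Pla2g2e-/-, which lack a secreted phospholipase A2. The RNA was read on 1-colour Agilent arrays, 1 per sample. All 6 titles say sham operation, whereas the treatment text given for every sample speaks of a transient middle cerebral artery occlusion, so the labels do not settle whether ischemia is shared by all samples. Age, the deleted part of Pla2g2e, perfusion of the brain and the brain region taken are not given in the sources used here. The labels do not say that samples of a group are separate animals, so p-values reflect only how these samples vary, and part of that may be technical.

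Lymphocytes and neutrophils are blood cells that are scarce in healthy brain tissue, where they are found mainly inside vessels, in the meninges and in the choroid plexus. T cells carry an antigen receptor whose signalling chains are the CD3 proteins, with CD4 or CD8 as coreceptor, and B cells signal through CD79. Neutrophils store antimicrobial proteins in granules, and their transcripts are made mostly while the cells mature in bone marrow. Of these, lactoferrin (Ltf), cathelicidin (Camp) and neutrophilic granule protein (Ngp) belong to the specific granules, and the gelatinase Mmp9 is stored in later granules and is also made by other cells. A factor known to be needed for specific granule transcripts is C/EBP epsilon.

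Sequences of the granule genes are shown because their probes shared 1 order of samples at the top and 2 of them had the widest range. The probes for Ngp (mm9 chromosome 9, 110324266 to 110324814, a span of 549 bases, longer than the probe) and Ltf (mm9 chromosome 9, 110942873 to 110942932) are 60 bases long and read as follows, 5′ to 3′.
Ngp probe A_52_P429450: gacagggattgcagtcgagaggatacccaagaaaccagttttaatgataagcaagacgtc
Ltf probe A_52_P15388: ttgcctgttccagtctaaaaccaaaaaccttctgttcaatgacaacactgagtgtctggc
Camp has 2 probes that share a stretch of 50 bases with 2 differences, A16G and T20C, counted from base 1 at the 5′ end of probe A_55_P2039699, whose base is given first. The shared stretch is shown from its start for 20 bases, with the differing bases in capitals.
Camp probe A_55_P2039699: cagccAgagTagtaggcctg
Camp probe A_55_P2158102: cagccGgagCagtaggcctg
The first Camp probe is placed at mm9 chromosome 9, 109749911 to 109749970. For the second the files give only 50 bases, 109749901 to 109749950, so part of it has no place there.

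The 250 bases before the transcription start of the 3 granule genes, from RefSeq on GRCm38.p6, are shown because their signals shared an order across samples. The table held an entry for 7 of the 9 members. Capitals mark 2 motifs searched on both strands, TTGCNNAA for C/EBP factors and GAGGAA for the core bound by PU.1.
Ngp, chr9:110419558-110419807, plus strand: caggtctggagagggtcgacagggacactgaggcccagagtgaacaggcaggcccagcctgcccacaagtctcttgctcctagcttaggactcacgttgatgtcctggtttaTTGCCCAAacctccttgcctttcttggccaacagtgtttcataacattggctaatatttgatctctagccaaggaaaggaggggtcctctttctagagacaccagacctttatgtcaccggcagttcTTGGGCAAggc
Camp, chr9:109849457-109849706, minus strand: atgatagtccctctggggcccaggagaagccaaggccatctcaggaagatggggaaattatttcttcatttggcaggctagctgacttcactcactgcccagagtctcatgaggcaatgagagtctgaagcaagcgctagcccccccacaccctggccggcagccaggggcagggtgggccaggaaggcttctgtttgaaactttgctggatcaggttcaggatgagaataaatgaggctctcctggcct
Ltf, chr9:111019042-111019291, plus strand: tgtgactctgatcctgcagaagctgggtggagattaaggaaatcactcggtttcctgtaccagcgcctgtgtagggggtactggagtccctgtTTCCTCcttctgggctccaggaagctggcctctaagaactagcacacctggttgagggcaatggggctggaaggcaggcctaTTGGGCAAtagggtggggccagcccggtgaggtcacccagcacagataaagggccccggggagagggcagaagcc
The C/EBP letters began 138 and 11 bases before the start of Ngp and 75 bases before that of Ltf, and were not in the Camp window. The PU.1 letters began 157 bases before the start of Ltf and were in neither of the other windows. Among the other members with an entry, the C/EBP letters were in the window of Cd8a, and the PU.1 letters in those of Cd3e, Cd8a and Cd79a. Of all 32851 promoter windows of this length, 9.56% held the C/EBP letters and 23.3% the PU.1 letters, and none of the matches shown overlapped another. A match is a description of letters and not a binding site.

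Across the arrays, 82.0% to 85.3% of the 43020 non-control spots were well above background and 0 were saturated. Wild-type 1, 2 and 3 and knockout 1 shared a slide, while knockout 2 and 3 were on a second slide. Brain identity was clear in every sample, with all 11 neuron, astrocyte and oligodendrocyte markers tested. Among them Syt1, a synaptic vesicle protein, had a level of 5.86 ± 0.01 in the wild-type samples and 5.85 ± 0.08 in the knockout samples (SD, n = 3 each). Wild-type 3 stood apart in striatum markers, whose median lay 1.40 above each gene's mean over the 6 arrays, against -0.44 to 0.08 on the other 5. It was also the highest array for 28.1% of all tested probes, and wild-type 2 was the lowest for 20.2%. Levels throughout are log2 processed signals minus the log2 of the array's 75th percentile, so a level of 0 equals that percentile, and levels of different probes are not comparable.

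Of the 13 member probes, 10 were well above background on all 6 arrays, and 11 probes of 8 genes entered the test. A probe entered when all arrays of 1 genotype, or of both, read it well above background. The 2 left out were the probe for Cd3g and 1 of the probes for Cd8a. In limma with Benjamini-Hochberg adjustment, 0 of the 11 passed an adjusted p of 0.05 (adjusted p from 0.357 to 0.983). The same held for 0% of the 31954 probes tested, and the smallest adjusted p of all was 0.197. An unadjusted p under 0.05 was found for 2 member probes, 1 each of Cd79a and Cd8a, and for 12.1% of all probes, 9.03% being lower in knockout. The Cd8a probe entered only through wild type, the genotype where it was higher, so its sign lends no support. Of the 11 member probes, 10 were highest on wild-type 3 and 4 were lowest on wild-type 2. By sign, 10 of the 11 member probes were lower in knockout, the Cd8a probe among them, as were 53.2% of all probes. The median difference over the brightest probe of each tested member was -0.34 (log2), against -0.01 over all 23864 genes, and it was 0.045 without wild-type 3. Leaving out knockout 1 let 2.69% of probes pass, with 0 members among them. In bulk tissue, fewer cells of a type and less RNA per cell cannot be told apart.

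**Figure D1:**
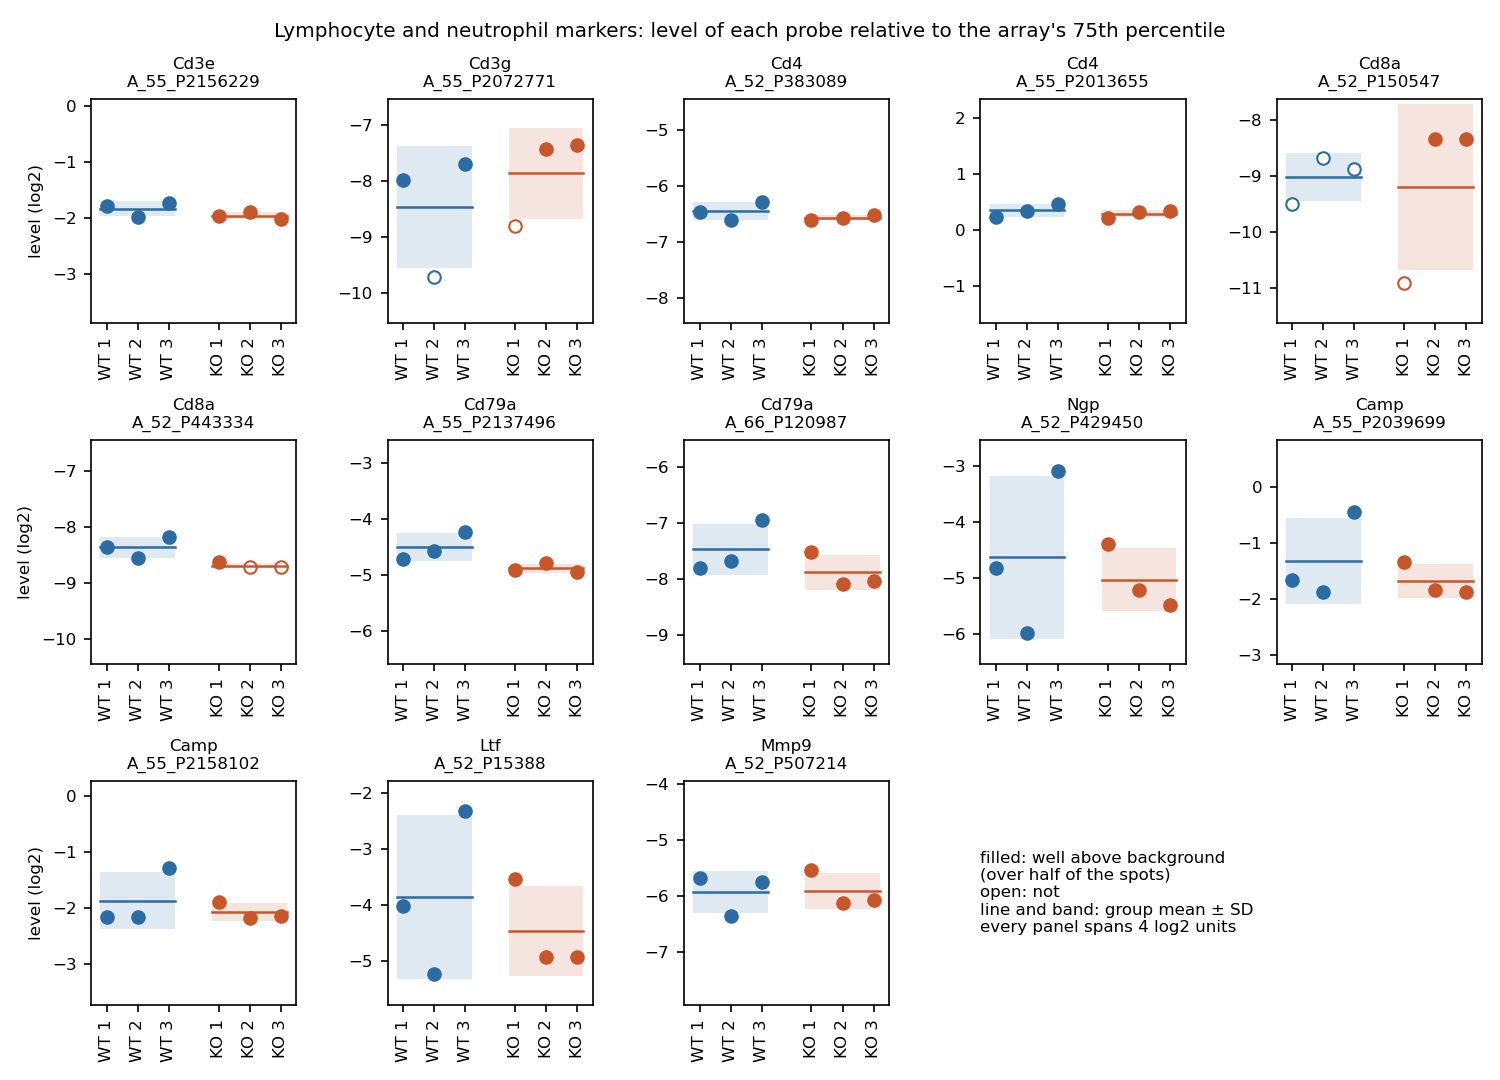
Level (log2, relative to the array's 75th percentile) of each of the 13 probes in 3 wild-type (WT, blue) and 3 knockout (KO, orange) samples, with the group mean as a line and ±SD as a band; filled points were well above background and open ones were not. Ngp, Ltf and both Camp probes were highest on wild-type 3 with knockout 1 next, whereas Cd3e and Cd4 spanned at most 0.33 log2 units over all 6 arrays.

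Ltf and Ngp were the tested members whose signals spanned the widest range over the 6 arrays, and both extremes were wild-type samples. Ltf, the iron-binding lactoferrin, read -4.03, -5.25 and -2.33 in wild type and -3.55, -4.93 and -4.94 in knockout, each in the order of samples 1, 2 and 3. Wild-type 3 was highest and wild-type 2 lowest, so all knockout values lay inside the wild-type range. From the lowest to the highest array the signal differed 7.54-fold. The genotype means of -3.87 ± 1.46 and -4.47 ± 0.80 (SD, n = 3 each) differed by -0.60 ± 0.79 (SE, 95% interval -2.53 to 1.33, limma adjusted p = 0.774). The difference was -1.29 without wild-type 2, -1.07 without knockout 1, 0.17 without wild-type 3, and 0.32 on the slide that holds both genotypes, where knockout is represented by knockout 1 alone.

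Ngp, a granule protein related to the cathelicidins, read -4.83, -5.99 and -3.09 in wild type and -4.40, -5.22 and -5.48 in knockout. Its order across samples matched that of Ltf, from wild-type 3 through knockout 1, wild-type 1, knockout 2 and knockout 3 to wild-type 2. The extremes were 7.45-fold apart. Its difference between genotypes of -0.40 ± 0.74 (SE, 95% interval -2.21 to 1.41) did not pass limma's test (adjusted p = 0.848). Without wild-type 2 the difference was -1.07, without knockout 1 it was -0.72, without wild-type 3 it was 0.37, and on the slide with both genotypes it was 0.24.

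Camp, the precursor of the antimicrobial cathelicidin peptide, followed the same upper order on both probes. Probe A_55_P2039699 read -1.67, -1.87 and -0.44 in wild type and -1.33, -1.84 and -1.86 in knockout. Probe A_55_P2158102 read -2.16, -2.16 and -1.28 in wild type and -1.89, -2.18 and -2.14 in knockout. On both, wild-type 3 was highest and knockout 1 second, and the other 4 arrays lay close together. The extremes were 2.68-fold apart on the first probe and 1.86-fold on the second, the pair that differs at A16G and T20C. Their differences between genotypes were -0.35 ± 0.39 and -0.20 ± 0.26 (SE, limma adjusted p = 0.732 and 0.767), with 95% intervals from -1.32 to 0.61 and from -0.83 to 0.43. Without wild-type 3 they were 0.088 and 0.091, without wild-type 2 they were -0.62 and -0.35, and on the slide with both genotypes -0.0064 and -0.021.

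The pattern with wild-type 3 first and knockout 1 second was shared by all 4 granule probes and was found in 3.47% of all tested probes. The granule probes were noticed for this order after their values were seen. The SD among the 3 wild-type arrays lay at the 99.7th percentile of all tested probes for both Ltf and Ngp, and at percentiles 98.1 and 94.3 for the Camp probes. All 3 wild-type arrays were on 1 slide, so that spread is within both a genotype and a slide. The summed signal of the 3 granule genes, in units of the array's 75th percentile, ranged from 0.32 to 1.05 in wild type and from 0.33 to 0.53 in knockout. Such a sum is carried by its brightest probe, here that of Camp, and the other 2 genes summed to 0.0421 to 0.316 and 0.0550 to 0.133.

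**Figure D2:**
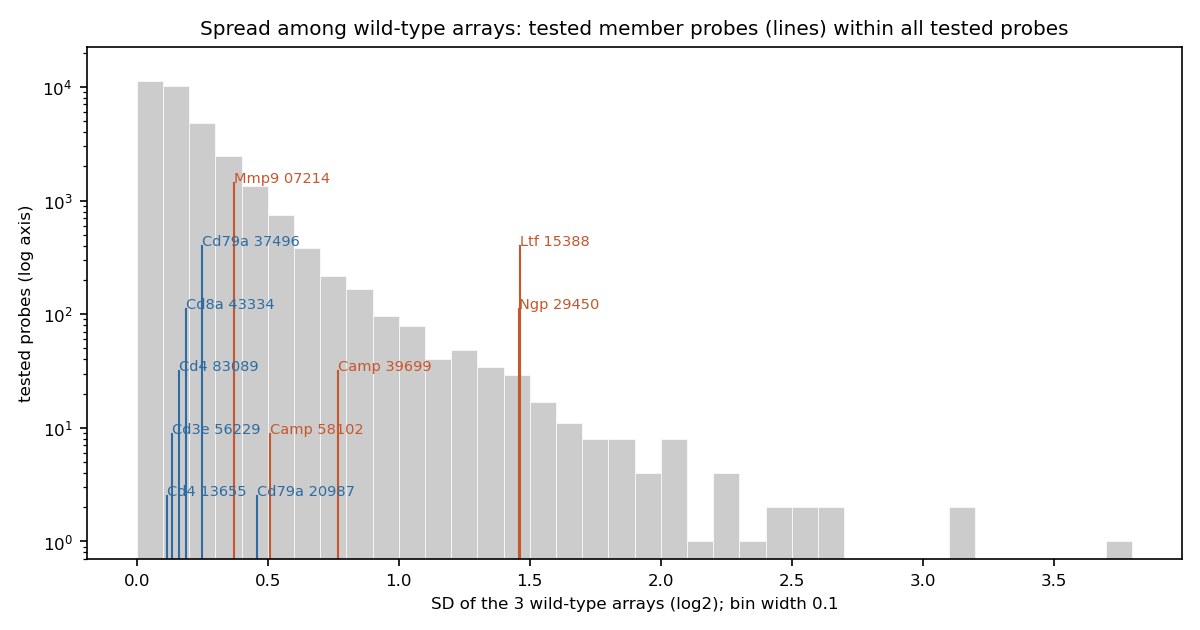
Histogram of the SD among the 3 wild-type arrays (log2) for all tested probes, with the number of probes on a log axis and the tested member probes as vertical lines labelled by gene and the last 5 digits of the probe name. Neutrophil genes are orange and lymphocyte genes blue, and Ltf and Ngp sit at 1.46 each, far into the upper tail, while Cd3e (0.13) and Cd4 (0.16 and 0.11) lie near the middle of all probes.

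Mmp9, the gelatinase, did not share that order. Its probe (mm9 chromosome 2, 164780620 to 164780679) was printed 10 times on each array, and the spots of 1 array varied with an SD between 0.08 and 0.20. It read -5.67, -6.35 and -5.75 in wild type and -5.53, -6.12 and -6.07 in knockout. Knockout 1 was highest, wild-type 1 and 3 came next, and wild-type 2 was lowest, so the groups overlapped. The difference of 0.02 ± 0.24 (SE, 95% interval -0.57 to 0.61) did not pass (limma adjusted p = 0.983). It was -0.20 without wild-type 2, -0.17 without knockout 1 and 0.39 on the slide with both genotypes.

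Of the CD3 members, Cd3e was measured on every array and Cd3g was not. Cd3e encodes the epsilon chain of CD3, and its probe lies at mm9 chromosome 9, 44806828 to 44806887. It read -1.78, -1.98 and -1.72 in wild type and -1.97, -1.89 and -2.01 in knockout. The groups overlapped, and the lowest and highest arrays were only 1.22-fold apart. The difference of -0.13 ± 0.09 (SE, 95% interval -0.35 to 0.09) did not pass limma's test (adjusted p = 0.586), and it was -0.011 after median centring, -0.20 without wild-type 2 and -0.077 without wild-type 3. The gamma chain gene Cd3g, separated from Cd3e by 1 protein-coding gene in the RefSeq order (Cd3d, which encodes the delta chain), was near background. Its probe (mm9 chromosome 9, 44777868 to 44777927) read -7.98, -9.72 and -7.71 in wild type and -8.81, -7.44 and -7.36 in knockout. It was well above background on 2 of 3 arrays in each genotype, so it was not tested. Its plain difference of 0.60 was -0.02 without wild-type 2 and 1.07 without knockout 1. Cd3d itself passed the filter, and averaged -7.29 ± 0.44 over the wild-type arrays and -7.71 ± 0.22 over the knockout arrays (SD, n = 3 each). It spanned 1.00 log2 units in all, with limma giving -0.43 ± 0.24 (SE, adjusted p = 0.510) for the genotypes. The wild-type mean was -1.83 for Cd3e, against -8.47 for Cd3g and -7.29 for Cd3d. Levels of different probes are not comparable, and how much of the Cd3e signal came from T cells was not tested.

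The coreceptor gene Cd4 has 2 probes on mm9 chromosome 6, at 124814711 to 124814770 and at 124817706 to 124817765, and both were well above background on every array. The first read 0.24, 0.34 and 0.47 in wild type and 0.22, 0.33 and 0.34 in knockout. Wild-type 3 was highest by a small margin and the groups overlapped. The second, printed 10 times, read -6.46, -6.59 and -6.27 in wild type and -6.61, -6.56 and -6.51 in knockout, with a spot SD from 0.18 to 0.27 within an array. Their differences were -0.06 ± 0.08 and -0.12 ± 0.10 (SE, limma adjusted p = 0.797 and 0.646), with 95% intervals from -0.26 to 0.15 and from -0.35 to 0.12. Without wild-type 3 they were 0.0013 and -0.031, and without wild-type 2 the second was -0.19. Median centring turned both signs, to 0.060 and 0.0021, so Cd4 has no direction that holds under each scaling. The 2 probes lay far apart in signal, with wild-type means of 0.35 and -6.44, and how much of either signal came from T cells was not tested. The brighter probe, A_55_P2013655, stood for Cd4 in the medians of the members and of the lymphocyte members.

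Cd8a, which encodes the alpha chain of CD8, was close to background on both of its probes. The probe at mm9 chromosome 6, 71328911 to 71328970, read -8.37, -8.55 and -8.18 in wild type and -8.63, -8.72 and -8.72 in knockout. All 3 knockout values were below all 3 wild-type values, as in 11.8% of tested probes. Of its 10 spots, 9, 7 and 9 were well above background in wild type and 6, 4 and 4 in knockout, and spots of 1 array varied with an SD from 0.24 to 0.70. By the rule of over 50% of spots it was well above background on 3 wild-type arrays and 1 knockout array. It thus entered the test through wild type alone, where it was higher, and the filter favours a lower knockout value. The difference of -0.33 ± 0.11 (SE, 95% interval -0.59 to -0.06, unadjusted p = 0.0233) did not pass limma's test over all probes (adjusted p = 0.357), and it was -0.10 after normexp background correction. The other probe, at 71323885 to 71323944, read -9.50, -8.69 and -8.88 in wild type, well above background on none of the arrays. In knockout it read -10.91, -8.34 and -8.34, well above background on knockout 2 and 3 only, both on the second slide. The knockout 1 value is a surrogate set by the software, so neither a fold nor a direction is given for this probe.

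Cd79a, the alpha signalling chain of the B cell receptor, was the other gene with separated groups. Its probe at mm9 chromosome 7, 25686823 to 25686882, read -4.71, -4.57 and -4.23 in wild type and -4.91, -4.79 and -4.95 in knockout. All knockout values were below all wild-type values, with wild-type 3 the highest. The difference of -0.38 ± 0.14 (SE, 95% interval -0.71 to -0.05, unadjusted p = 0.0321), or 1.30-fold, did not pass over all probes (limma adjusted p = 0.377). It was -0.24 without wild-type 3, -0.40 on the slide with both genotypes and -0.28 after normexp. The second probe, spanning 25684357 to 25684614, read -7.80, -7.68 and -6.95 in wild type and -7.52, -8.09 and -8.05 in knockout. Here knockout 1 lay above wild-type 1 and 2, so the groups overlapped. The difference was -0.41 ± 0.27 (SE, 95% interval -1.07 to 0.25, limma adjusted p = 0.564), -0.15 without wild-type 3 and -0.05 on the slide with both genotypes. Of the 11 tested member probes, 2 had non-overlapping groups, the first Cd79a probe and the Cd8a probe that entered through wild type alone. Over all probes 19.2% did, 11.8% with knockout lower and 7.38% with knockout higher.

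**Figure D3:**
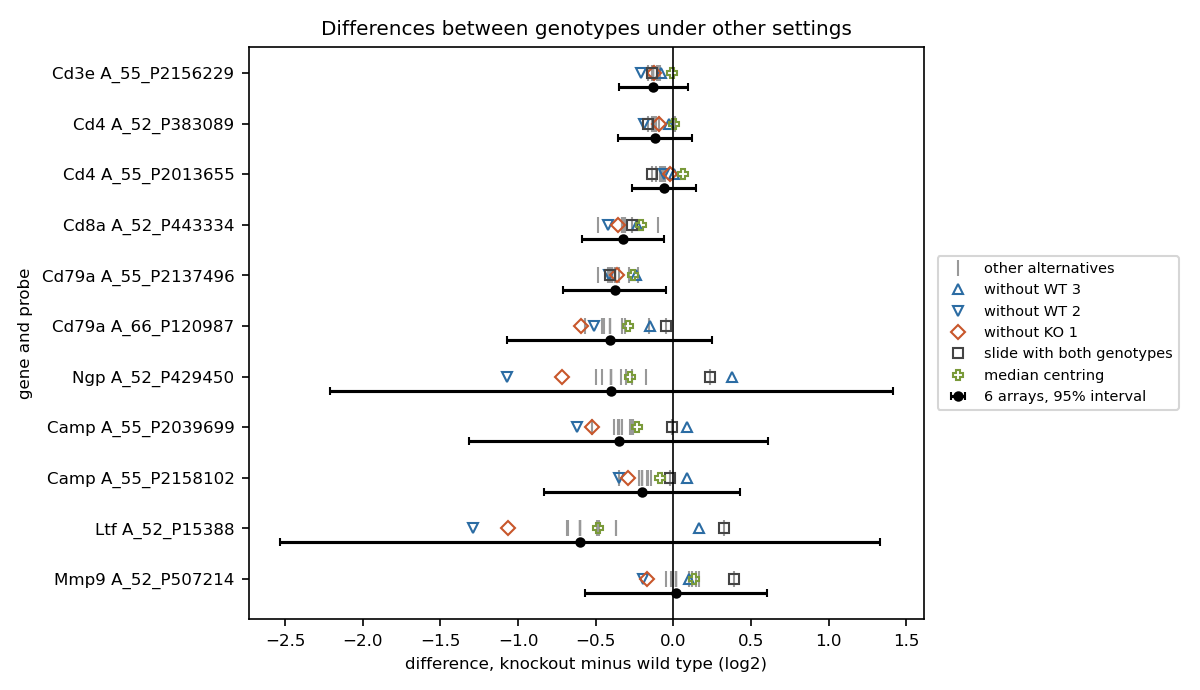
Difference between knockout and wild type (log2) for the 11 tested probes, with the value over 6 arrays and its 95% interval in black and the values under other settings as marks. The granule genes Ngp, Ltf and Camp lie on both sides of 0 depending on whether wild-type 3 or wild-type 2 is left out. Cd3e, both Cd79a probes and the tested Cd8a probe stay below 0 in every setting shown. These settings reuse the same arrays and are not independent of each other. The Cd8a probe entered the test through wild type alone, so its sign lends no support.

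Other markers of the same cells were examined from lists of textbook markers that hold none of the members. Genes of these and the later lists could also enter the test through 1 genotype alone, where they tend to be higher. How many did so was not counted, and the sign of such a gene lends no support. Of 29 neutrophil genes, 24 were lower and 5 higher in knockout by sign with a median difference of -0.40, while 53.8% of all genes were lower. In limma 0 of them passed over all genes tested, and 3 had all knockout values below all wild-type values, against 12.1% of all genes, and 0 had all of them above, against 7.56%. An unadjusted p under 0.05 was found for 4, each lower in knockout (9.35% of all genes, and 12.4% in either direction). The middle gene by difference was Stfa1, a dim gene that read -8.34, -7.84 and -7.64 in wild type and -7.78, -8.24 and -8.98 in knockout. The list's median was -0.10 without wild-type 3 and -0.71 without wild-type 2. Its brightest genes were Csf3r, the receptor for the granulocyte growth factor, with -0.28 ± 0.13, and S100a9, a calcium-binding protein abundant in neutrophils, with -0.75 ± 0.73 (SE, limma adjusted p = 0.444 and 0.691). S100a9 read 2.24, 0.06 and 2.75 in wild type and 1.56, 0.64 and 0.58 in knockout. Thus it was also highest on wild-type 3 and lowest on wild-type 2, but wild-type 1 lay above knockout 1. That was so in 22 of the 29 neutrophil genes and in none of the 3 granule members, while 57.8% of all genes had wild-type 1 above knockout 1. Wild-type 3 was the highest array for 17 of the 29 and for 27.8% of all genes, and wild-type 2 the lowest for 18 of the 29 and for 18.0% of all genes.

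Of 20 T cell genes 18 were tested, 16 lower and 2 higher by sign, with a median of -0.26, which was -0.13 without wild-type 3 and -0.41 without wild-type 2. Cd6, a T cell surface receptor, differed by -0.12 ± 0.15 and Zap70, the kinase that docks on the receptor chains, by 0.05 ± 0.12 (SE, limma adjusted p = 0.759 and 0.879). Groups were separated with knockout lower in 4 of the 18, against 12.1% of all genes. Of 14 B cell genes 11 were tested, 9 lower and 2 higher, with a median of -0.28, and 1 of the 11 was separated with knockout lower, against the same 12.1%. Cd22, an inhibitory B cell receptor, differed by -0.20 ± 0.16 and Ebf1, a transcription factor also made by pericytes, by -0.46 ± 0.22 (SE, limma adjusted p = 0.632 and 0.459). The B cell list lay 0.90 above its mean over arrays on wild-type 3 and between -0.21 and 0.07 on the others, and without wild-type 3 its median difference was -0.0015, without wild-type 2 -0.57 and without wild-type 1 -0.45. Of 10 genes of cytotoxic lymphocytes 6 were tested, with a median of -0.29, 5 lower and 1 higher. That median was -0.15 without wild-type 1, -0.49 without wild-type 2, -0.48 without knockout 1 and -0.19 without knockout 3. Nkg7, a cytotoxic granule protein, differed by -0.09 ± 0.06 and the chemokine Ccl5 by 0.08 ± 0.45 (SE, limma adjusted p = 0.602 and 0.955). In these 3 lists 0 genes passed limma's test over all probes.

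Markers of other cells that the tissue could hold were read on the same arrays. Red blood cell genes had, by their median, another order than the granule genes, relative to each gene's mean. Of the 9 tested, 3 (Slc4a1, Ahsp and Rhd) were still highest on wild-type 3, and 2 were lowest on wild-type 2. Their median stood at 1.38, -0.44 and 0.06 in wild type and at -1.69, 1.77 and -1.10 in knockout. Their summed signal ran from 18.5 to 64.4 times the array's 75th percentile in wild type and from 7.10 to 82.4 in knockout over 9 tested genes of 13, led by Hba-a2 and Hba-a1, the alpha globins. Choroid plexus genes, 10 of 10 tested and led by Ttr and Rarres2, stood at 0.74, -0.88 and 0.96 in wild type and 0.22, -0.63 and -0.54 in knockout. By median they were therefore high on wild-type 3, low on wild-type 2 and above their mean on knockout 1, as the granule genes were. Of the 10, 7 were highest on wild-type 3 and 8 were lowest on wild-type 2. Rarres2 was instead highest on wild-type 2, reading -0.01, 0.04 and -0.81 in wild type and -1.23, -1.26 and -0.43 in knockout. On wild-type 1 the 2 sets differed, with 0.74 for choroid plexus genes and 0.0044 for the granule members. Wild-type 1 lay above knockout 1 in 9 of the 10 choroid plexus genes and in 0 of the 3 granule members. The summed signal of the choroid plexus genes ran from 5.90 to 24.8 in wild type and from 8.14 to 14.7 in knockout. Neutrophil markers other than the members summed to 25.0 to 42.1 in wild type and 24.7 to 26.3 in knockout, most of it from the probe of Csf3r. Without Csf3r the sums were 4.07 to 13.3 and 4.99 to 7.16. How much of the Csf3r signal came from neutrophils was not tested. The part of blood content or of choroid plexus in the granule values was not tested.

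Meningeal and fibroblast genes, 10 of 10 tested and led by Mgp and Slc13a4, had a median of 0.63 on wild-type 3, while the other wild-type arrays gave 0.16 and -0.05 and knockout gave -0.48 to -0.12. Border macrophage genes, 9 of 10 tested, led by Stab1 and Pf4, reached 0.55 on that array, with 0.27 and -0.14 on the other wild-type arrays and -0.36 to -0.07 in knockout. Both lists were thus highest on wild-type 3, as were the lymphocyte members, whose median there was 0.26 against -0.16 to 0.05 elsewhere. Microglia genes, 13 of 13 tested and led by Siglech and Csf1r, had medians between -0.09 and 0.14 on all arrays, with a median difference of -0.02. Single genes varied more, as Olfml3 spanned 1.07 log2 units. Monocyte genes (7 of 9 tested, led by Fn1 and Vcan) and platelet genes (9 of 10 tested, led by Pf4 and Itgb3) had median differences of -0.32 and -0.24. The median was -0.41 for border macrophage genes (9 of 9 lower by sign), -0.48 for meningeal genes (10 of 10, with 5 separated) and -0.59 for choroid plexus genes (10 of 10). It was -0.70 for red blood cell genes (8 of 9) and -0.83 for striatum genes (10 of 10). Without wild-type 3 these were -0.21, -0.32, -0.20, -0.84 and -0.33, and without knockout 1 the red blood cell median was 0.038. The border macrophage, meningeal, choroid plexus, red blood cell and striatum lists thus had medians at least as low as that of the neutrophil list. Those of microglia, monocyte and platelet genes were less low, and no gene of any of these lists passed limma's test. The part of these cells in the values of Cd79a and Cd8a was not tested.

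**Figure D4:**
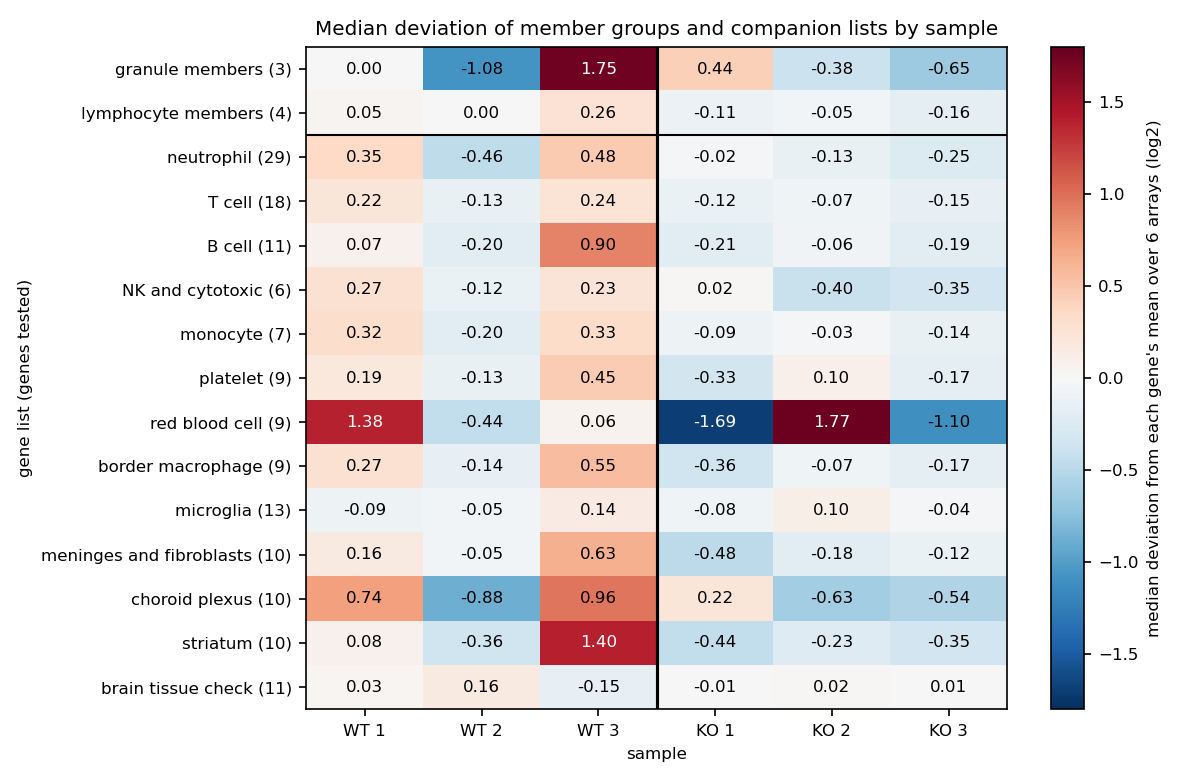
Median deviation of each gene list from its genes' means over the 6 arrays (log2, colour and printed value) by sample, with the 2 groups of members on top and the number of tested genes in brackets. The granule members range from -1.08 on wild-type 2 to 1.75 on wild-type 3, and the lymphocyte members only from -0.16 to 0.26. The median of red blood cell genes peaks on other arrays (1.38 on wild-type 1, 1.77 on knockout 2), although 3 of the 9 genes were highest on wild-type 3.

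Genes outside the list whose levels followed those of the members most closely were looked for over the 6 arrays, by the root mean squared difference of centred log2 profiles. Nearest to the mean of Ngp, Camp and Ltf, among 24466 probes with a gene symbol, were Aox4, Htr2c, Odf3, Wfdc2 and Smco2, at distances of 0.14, 0.16, 0.21, 0.22 and 0.24. Aox4 read -7.70, -8.49 and -6.31 in wild type and -7.32, -8.53 and -8.27 in knockout. Wfdc2 read -3.50, -4.82 and -2.33 in wild type and -3.08, -4.52 and -4.22 in knockout. That both, like the granule genes, have wild-type 3 first and knockout 1 second follows from how they were chosen. The mean profile of the tested lymphocyte members ran only from -0.14 on knockout 3 to 0.28 on wild-type 3, with all knockout values below all wild-type values. It includes the Cd8a probe that entered the test through wild type alone. Nearest to this profile were Angpt2, Kctd6, Tmem116, Kmt5b and Acvr2b, at 0.02 or 0.03 each. That they too have lower knockout values follows from how they were chosen. This likeness is a description over 6 arrays that share slides and scaling.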

How the data were processed

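Total RNA was labelled with Cy3 and hybridised to Agilent arrays, 1 sample each. The deposited intensity values were extracted with Agilent Feature Extraction 12.1.1.1 (protocol GE1_1200_Jun14, build mm9), which subtracted background and detrended the processed signal, per the file headers. The software put a surrogate in place of the signal at 2368 to 3150 very dim spots per array, so dim genes depend on the background treatment. Control spots and spots marked as outliers (68 to 530 per array) were left out. The log2 processed signal minus the array's 75th percentile was averaged over the spots of a probe. A probe counted as well above background when over 50% of its spots were, and needed at least 2 values per group. Probes were compared with limma 3.58.1 in R 4.3.3 (lmFit and eBayes, two-sided, no covariate), checked on simulated data, and p-values were adjusted by Benjamini-Hochberg over 31954 probes at 0.05. Lists used the brightest tested probe of a gene. An exact permutation test of 3 against 3 cannot go below 0.1 and was not used. Groups follow the sample titles. In 0% of probes did 2 arrays hold identical values. The number of arrays limits the precision. All 9 members were named with every probe, and of each companion list the 2 brightest genes, not all of which are reported here. The members and lists were chosen with earlier results of these data known. Alternatives covered background, scaling, filters, probes, slide, replicate number and each left-out sample.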

Additional observations from a re-analysis of the deposited data

How the results depend on the processing

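Over 19 alternatives, 0 of the 207 member values passed limma's test (smallest adjusted p = 0.185). The number of probes passing over the whole array was 0 in 18 of them and 0 to 882 when samples were left out in turn, with 882 (2.69%) without knockout 1, when genotype and slide cannot be told apart, and with 0 members among them. Median centring moved the median of all probes from -0.01 to 0.11. It gave 0.0021 for Cd4 A_52_P383089 and 0.060 for Cd4 A_55_P2013655, and medians of -0.11 for the lymphocyte members, 0.10 for microglia and 0.11 for brain markers. Quantile normalization gave 0.012 for Cd4 A_52_P383089. Normexp gave -0.11 for the lymphocyte members and -0.045 for Mmp9, and the slide as a random block -0.017 for Mmp9. With the slide as a fixed block and on the slide with both genotypes, Ngp was 0.24, Ltf 0.32 and the median of the members -0.071. The mean of a gene's probes gave -0.56 for monocytes. The cause of these shifts was not tested. Leaving out each sample gave -1.07 to 0.37 for Ngp, -1.29 to 0.17 for Ltf, -0.62 to 0.088 and -0.35 to 0.091 for Camp, -0.20 to 0.14 for Mmp9, -0.11 to 0.0013 for Cd4 A_55_P2013655 and -0.42 to 0.045 for the median of the members. Samples with the same replicate number did not deviate together (correlations of -0.04, -0.15 and -0.10). With the replicate block 0 probes passed, Ltf was -0.60 and Cd79a -0.38. Signals near background limit Cd3g and Cd8a.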
